A study of Mus musculus and Rattus norvegicus with 32 samples.

Results

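The genes described here are 10 markers of activated cardiac fibroblasts: Postn, Tnc, Thbs4, Comp, Fn1, Mfap4, Cilp, Cthrc1, Fap and Meox1. They were taken by symbol from the deposited RNA-seq tables, and all 10 were found once among the 55487 genes of the 3 mouse heart tables and once among the 32883 genes of the rat table. The study asked what loss or gain of METTL5, a methyltransferase of ribosomal RNA, does to the heart and to cardiomyocytes. Each table compared 4 libraries with 4 libraries. Hearts of C57BL/6 mice came from animals of 1 month labelled Mettl5-KO or Ctrl, from animals of 3 months labelled Mettl5-cKO or Ctrl, and from animals also labelled as 3 months old, Mettl5-cKO or Ctrl, 4 weeks after transverse aortic constriction (TAC), an operation that narrows the aorta and overloads the left ventricle. The KO lacks METTL5 in the whole body, while the cKO carries a floxed METTL5 allele that the cardiomyocyte-specific Myh6-Cre deletes, so in cKO hearts the fibroblasts themselves are not the cells in which Cre is driven. Controls were littermates, and which Cre or floxed alleles they carried is not given in the sources used here. The rat table holds ventricular myocytes of neonatal Sprague Dawley rats of postnatal day 2 (NRVMs), depleted of fibroblasts by pre-plating, transduced with adenovirus for GFP (AdGFP) or METTL5 (AdMETTL5) and all treated with 20 μM phenylephrine (PE), a hypertrophic agonist, for 24 h.

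Resident cardiac fibroblasts keep up the collagen scaffold of the heart. Under injury or overload, signals such as TGF-beta, angiotensin and mechanical stretch turn some of them into activated fibroblasts and myofibroblasts, which secrete new matrix and express genes that are low in the resting heart. Among these are matricellular proteins, which are placed in the matrix and act on cells through integrins rather than bearing load (Postn, Tnc, Thbs4, Comp), matrix glycoproteins that help to assemble fibres or bind growth factors (Fn1, Mfap4, Cilp), the secreted collagen-triple-helix protein Cthrc1, the membrane protease Fap, and the homeobox factor Meox1. Other cells of the heart also make some of them, such as Fn1 in endothelial cells and Meox1 in vascular and mural cells.

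Total counts per library ranged from 19899033 to 21804907 in the hearts and from 14324700 to 18085339 in NRVMs. Levels are given as counts per 1000000 on TMM-scaled library sizes (CPM), and a gene was called where edgeR's quasi-likelihood test gave a Benjamini-Hochberg adjusted p under 0.05 over all tested genes. The whole-gene count of Mettl5 did not separate knockout from control hearts (5.97 against 5.12 CPM at 1 month, 6.51 against 7.36 at 3 months and 6.59 against 6.75 after TAC), so here the genotypes rest on the labels. A count over the whole gene need not fall where only the floxed exons are deleted, and reads over single exons were not analysed here. From its own RNA-seq reads, the paper reports that the floxed exons could hardly be detected in METTL5-cKO hearts. In NRVMs the rat Mettl5 gene was at 21.2 CPM with AdMETTL5, whose insert is the human coding sequence, and at 17.0 CPM with AdGFP. After TAC, library 4 of the METTL5-cKO hearts was the lowest of its group in most of the 10 genes, and results are given with and without it. It was picked by its values in these same genes, so wider changes without it follow from that choice. The rule for libraries far from the other 3, given at the end, flagged none of this group. That rule reads each gene by itself, so it cannot judge a library that is low in many genes together. The sources used here do not say whether each heart library is 1 animal or a pool, so p-values measure only the spread between these libraries. In whole hearts, more fibroblasts and more RNA per fibroblast cannot be told apart.

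The sequence before the start of transcription is shown for 3 of the genes that rose most after TAC in METTL5-cKO hearts, since genes that move together are often read for shared promoter letters. RefSeq windows were held for 4 of the 10 genes (Postn, Tnc, Thbs4 and Cilp, build GRCm38.p6), and the 250 bases before the start are printed 5′ to 3′ on the strand of the gene. Capitals mark letters that belong to a searched motif on either strand, namely GGAATG (bound by TEAD factors), CAGAC (bound by SMAD factors), TGANTCA (bound by AP-1) or TAATTA (bound by homeobox factors).
Postn, chr3:54360857-54361106, plus strand: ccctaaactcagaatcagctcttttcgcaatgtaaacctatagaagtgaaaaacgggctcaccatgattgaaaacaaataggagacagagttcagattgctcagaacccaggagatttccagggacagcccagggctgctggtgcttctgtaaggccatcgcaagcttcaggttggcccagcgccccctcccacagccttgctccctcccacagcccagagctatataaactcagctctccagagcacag
Thbs4, chr13:92794819-92795068, minus strand: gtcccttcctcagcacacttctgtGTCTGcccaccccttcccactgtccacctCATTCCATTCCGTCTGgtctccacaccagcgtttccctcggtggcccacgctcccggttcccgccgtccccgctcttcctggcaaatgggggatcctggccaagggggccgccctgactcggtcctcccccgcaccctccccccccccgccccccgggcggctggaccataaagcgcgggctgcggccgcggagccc
Cilp, chr9:65264930-65265179, plus strand: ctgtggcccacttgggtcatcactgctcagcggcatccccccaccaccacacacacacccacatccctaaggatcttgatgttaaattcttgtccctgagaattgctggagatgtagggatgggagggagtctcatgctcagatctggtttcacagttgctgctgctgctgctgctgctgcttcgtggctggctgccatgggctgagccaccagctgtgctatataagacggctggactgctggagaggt
The Thbs4 window held GGAATG in reverse complement at 197 and 192 bases before the start, in adjacent copies that share 1 base, and the reverse complement of CAGAC at 226 and 186 bases before the start. The windows of Postn, Cilp and Tnc held none of the 4 motifs. Over all 32851 windows of 250 bases, 12.6% held GGAATG, 42.2% CAGAC, 6.75% TGANTCA and 4.84% TAATTA. These are matches of letters in a short window.

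Hearts after TAC gave the widest differences. In hearts labelled METTL5-cKO, 8 of the 10 genes were higher than in control hearts after the same operation, from 2.23-fold (Fn1) to 24.4-fold (Comp) in mean CPM. The steepest were Comp, Thbs4, Postn and Cilp, and Fap did not pass the test. Cthrc1 was not tested, because fewer than 4 libraries reached the minimum count of 10. Over all 16340 genes tested, 6.57% were called higher and 12.7% were called in either direction. With a minimum of 2-fold, 2.01% of all genes and the same 8 of the 10 genes were called higher. The median log2 fold change was 2.56 over the 9 tested genes and -0.0035 over all tested genes. For 7 of the 9 tested genes and for Cthrc1 every METTL5-cKO library lay above every control, which held for 9.41% of all tested genes. An exact two-sided permutation test gave each of them p = 0.0286, the smallest that 4 libraries against 4 allow. Where groups do not overlap this test can give no other value, so it adds nothing to that separation. The plot of log2 CPM by library shows each gene in all heart groups.

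**Figure D1:**
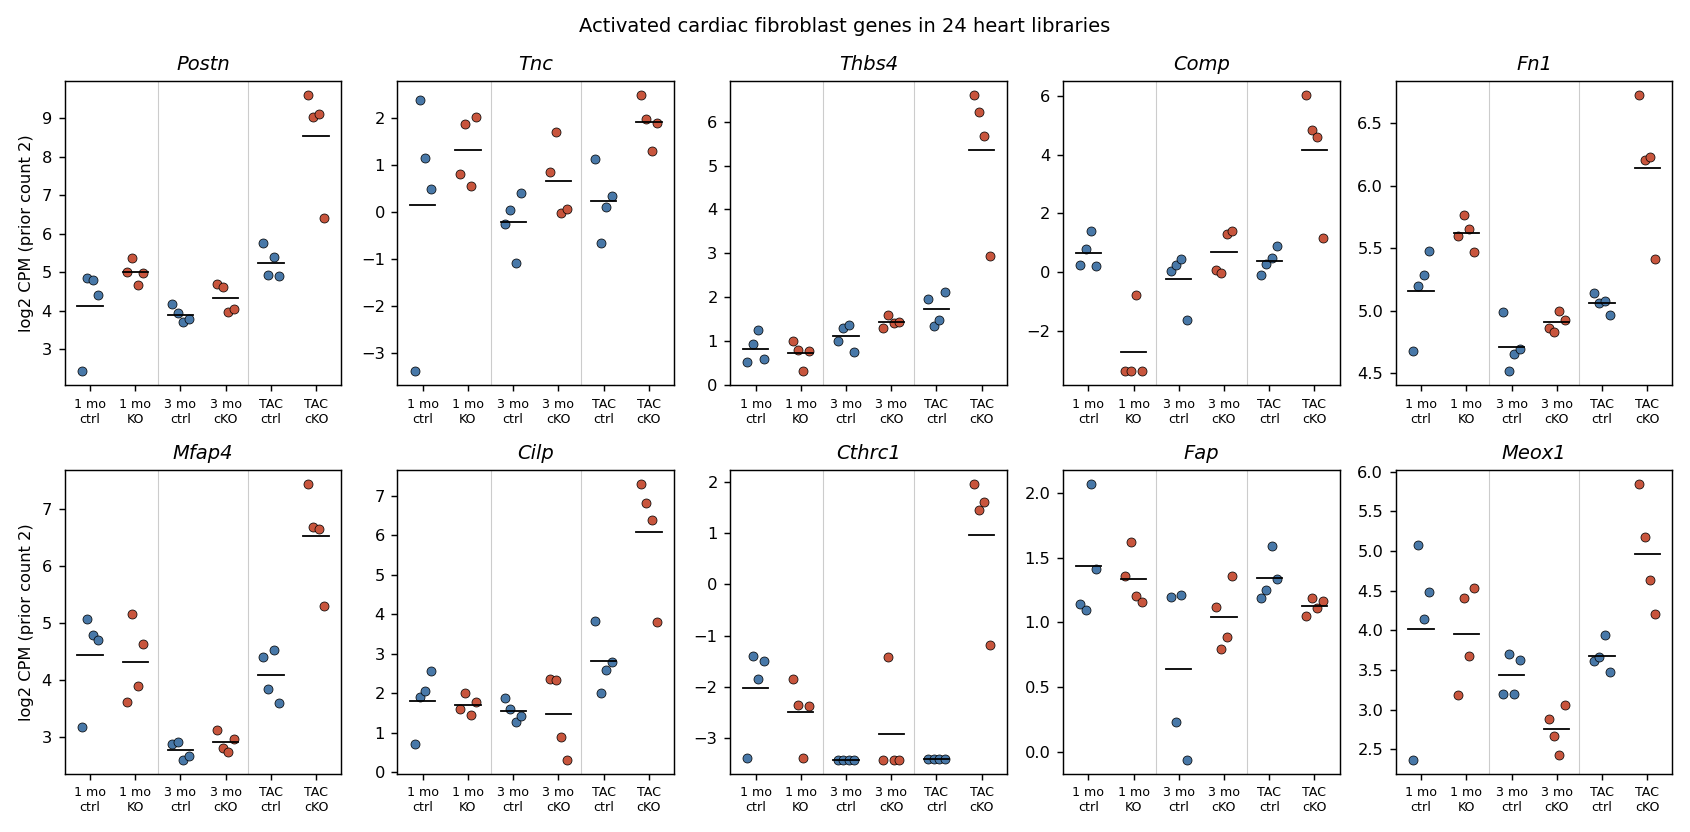
Level of each gene in the 24 heart libraries, as log2 CPM with a prior count of 2 (points: libraries in the order 1 to 4, bars: group means, each panel with its own axis). METTL5-cKO hearts after TAC stand above all other groups for Postn, Thbs4, Comp, Fn1, Mfap4, Cilp and Cthrc1 in libraries 1 to 3, whereas library 4 is the lowest point of its group for each of these genes, and the groups overlap for Fap.

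The matricellular genes were led by Postn. Postn (ENSMUSG00000027750, chromosome 3 of GRCm38 from 54361109 to 54391037, plus strand), which encodes periostin and is the usual marker of activated cardiac fibroblasts, was at 783, 522, 554 and 85.1 CPM in the 4 METTL5-cKO libraries and at 53.9, 30.3, 41.8 and 30.1 CPM in the controls. All METTL5-cKO libraries lay above all controls, but library 4 was at only 1.58 times the highest control. The log2 fold change was 3.64 (SE 0.569, adjusted p = 0.00948 in edgeR). Thbs4 (ENSMUSG00000021702, chromosome 13 from 92751590 to 92794818, minus strand), a thrombospondin of stressed muscle and tendon, was at 97.8, 74.4, 51.2 and 7.64 CPM in METTL5-cKO hearts and at 3.82, 2.43, 2.71 and 4.22 CPM in controls. The groups did not overlap, and the log2 fold change was 4.13 (SE 0.662, adjusted p = 0.00978 in edgeR). Comp (ENSMUSG00000031849, chromosome 8 from 70373558 to 70382066, plus strand), also a thrombospondin and best known from cartilage, was at 66.3, 29.0, 24.7 and 2.15 CPM against 0.843, 1.12, 1.30 and 1.75 CPM. It had the steepest fitted change of the 10 genes, a log2 fold change of 4.60 (SE 0.860, adjusted p = 0.0146 in edgeR), and the widest spread, since library 1 was 30.9 times library 4. Tnc (ENSMUSG00000028364, chromosome 4 from 63959785 to 64047015, minus strand), the de-adhesive protein tenascin-C, was lower in level and was at 5.52, 3.83, 2.34 and 3.59 CPM against 2.08, 0.535, 0.989 and 1.16 CPM. The groups did not overlap, and in contrast to the other 3 genes METTL5-cKO library 4 was not the lowest. Its log2 fold change of 1.67 (SE 0.373, adjusted p = 0.0231 in edgeR) was the least secure of the called genes, since leaving out single libraries moved its adjusted p between 0.0179 and 0.0713 and took it past the threshold in 5 of 8 cases.

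The matrix glycoproteins rose in the same libraries. Mfap4 (ENSMUSG00000042436, chromosome 11 from 61485431 to 61488900, plus strand), a microfibril-associated protein that binds elastic fibres, was at 173, 103, 99.6 and 39.2 CPM in METTL5-cKO hearts and at 21.2, 14.2, 22.8 and 12.1 CPM in controls. The groups did not overlap, and library 4 was 1.72 times the highest control, a log2 fold change of 2.56 (SE 0.403, adjusted p = 0.00953 in edgeR). Cilp (ENSMUSG00000042254, chromosome 9 from 65265180 to 65280605, plus strand), a secreted matrix protein that can bind TGF-beta, was at 158, 113, 83.2 and 13.8 CPM against 14.1, 3.89, 5.88 and 6.84 CPM. Here the groups overlapped, because METTL5-cKO library 4 was at 0.979 of control library 1, while the fit gave a log2 fold change of 3.58 (SE 0.671, adjusted p = 0.0146 in edgeR). Fn1 (ENSMUSG00000026193, chromosome 1 from 71585520 to 71653200, minus strand), fibronectin, was at 106, 73.5, 74.9 and 42.5 CPM against a narrow range of 31.2 to 35.2 CPM in controls. All METTL5-cKO libraries were above that range, and the log2 fold change was 1.15 (SE 0.222, adjusted p = 0.0154 in edgeR). Exons of Fn1, Tnc and Mfap4 share 292, 176 and 89 bases with a gene on the other strand, and the strandedness of the libraries is not given, so reads in those stretches are uncertain.

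The secreted protein, the protease and the transcription factor differed from each other. Cthrc1 (ENSMUSG00000054196, chromosome 15 from 39076932 to 39087121, plus strand), which marks the matrix-producing fibroblasts of scars, had 87, 58, 73 and 7 counts in the METTL5-cKO libraries and 0 counts in each of the 4 controls. With a floor of 3 counts per library it was at least 16.4-fold higher, and without the filter on low counts its adjusted p was 0.0428 in edgeR. Meox1 (ENSMUSG00000001493, chromosome 11 from 101877510 to 101894374, minus strand), a factor that drives the activated state in fibroblasts, was at 57.6, 36.0, 24.7 and 18.4 CPM against 12.1, 12.5, 15.2 and 11.1 CPM. The groups did not overlap, with a log2 fold change of 1.42 (SE 0.310, adjusted p = 0.0215 in edgeR) and lost its call in 3 of 8 cases when a single library was dropped (adjusted p up to 0.0713 in edgeR). Fap (ENSMUSG00000000392, chromosome 2 from 62500943 to 62574075, minus strand), a serine protease used to image activated fibroblasts, stayed outside this pattern. It was at 1.97, 2.19, 2.06 and 2.15 CPM in METTL5-cKO hearts and at 2.18, 2.29, 2.91 and 2.43 CPM in controls, so the groups overlapped, and its log2 fold change was -0.23 (SE 0.133, adjusted p = 0.285 in edgeR). It also had the smallest spread relative to its mean among METTL5-cKO libraries, an SD of 0.0951 around 2.09 CPM.

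**Figure D2:**
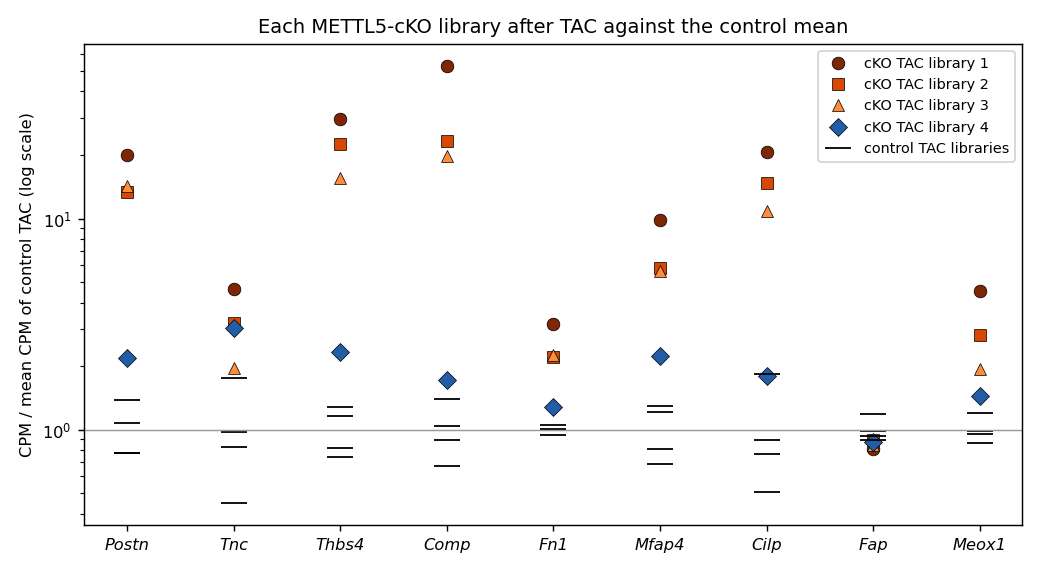
CPM of 9 genes in each METTL5-cKO library after TAC divided by the control TAC mean, on a log axis (symbols: METTL5-cKO libraries, short lines: control libraries; Cthrc1 is left out because its controls are at 0). Library 1 is the highest for 8 of the 9 genes and library 4 the lowest for 7, while all 4 libraries sit just below 1 for Fap.

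The METTL5-cKO libraries kept nearly the same order from gene to gene, as the plot of each library against the control mean shows. Library 1 was the highest in 8 of 9 genes, and library 4 was the lowest in 7. Library 4 still lay above the highest control in 7 of the 9 genes, the exceptions being Cilp and Fap. Without library 4, the same 8 genes were called higher, with log2 fold changes of 4.00 for Postn, 5.0 for Comp, 4.5 for Thbs4, 3.95 for Cilp, 2.84 for Mfap4, 1.71 for Tnc, 1.63 for Meox1 and 1.35 for Fn1. Cthrc1 then passed the filter on low counts and was called (adjusted p = 0.000359 in edgeR). It passed only through the METTL5-cKO libraries, where it is high, so this call adds no separate result. Without control library 4, 4 of the 8 were called (Postn, Comp, Thbs4 and Mfap4). The losses were Cilp, Meox1, Fn1 and Tnc, with adjusted p from 0.0536 to 0.0713 in edgeR. Cthrc1 entered here too through the METTL5-cKO libraries alone, with an adjusted p of 0.0493 in edgeR. Scaling by library size alone moved the median of all genes up by 0.147 (log2) and the share of calls that were higher from 51.9% to 79.7%, with 8 of the 10 genes called higher under either scaling.

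Read per kilobase of the longest coding transcript, which allows genes to be compared with each other, METTL5-cKO hearts after TAC had Postn on top at 152 ± 91.0 CPM per kb (SD, n = 4). Mfap4 followed at 60.2 ± 31.9, Cilp at 22.2 ± 14.6, Thbs4 at 18.1 ± 12.0, Meox1 at 15.3 ± 7.73, Comp at 12.6 ± 11.0 and Fn1 at 8.92 ± 3.10 CPM per kb. The libraries of each of these neighbours overlapped, and the first gap without overlap was that down to Cthrc1 at 2.09 ± 1.27 CPM per kb. Here and for levels per kb below, overlap can set different libraries against each other, though all genes were read in the same libraries. The order within each library was not tested. Fap at 0.761 ± 0.0346 and Tnc at 0.538 ± 0.184 CPM per kb closed the order. In control hearts after TAC the order was Postn at 12.2 ± 3.53, Mfap4 at 10.2 ± 3.04, Meox1 at 5.72 ± 0.798 and Fn1 at 4.01 ± 0.194 CPM per kb, with every other gene below 2. Comp, Thbs4 and Cilp were thus below Fn1 per kb in control hearts and above it in the METTL5-cKO mean, with no test of the change in order.

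The paralogues of the 10 genes moved unevenly after TAC. Of the 13 listed, 10 were tested, 5 were called higher and 1 lower, where 6.57% of all tested genes were called higher and 12.7% in either direction. Mfap5 rose from 26.9 ± 4.05 to 113 ± 52.6 CPM (SD, n = 4; log2 fold change 2.07, adjusted p = 0.00958 in edgeR), and Thbs1, a thrombospondin that activates latent TGF-beta, rose from 6.61 ± 2.09 to 22.4 ± 9.29 CPM (1.76, adjusted p = 0.0130 in edgeR). Thbs3, Mfap2 and the periostin relative Tgfbi rose by 0.63, 0.63 and 0.35 on the log2 scale. Thbs2 was at 9.53 ± 1.66 in controls and 10.0 ± 1.61 CPM in METTL5-cKO hearts, Tnxb at 79.0 ± 6.61 and 85.5 ± 6.24, Mfap3 at 11.1 ± 1.18 and 11.6 ± 1.09, and Dpp4, the relative of Fap, at 1.81 ± 0.147 and 1.53 ± 0.451 CPM, none of them called. Meox2 fell by 0.54 on the log2 scale (from 14.2 ± 2.75 to 9.82 ± 1.22 CPM, adjusted p = 0.0405 in edgeR), opposite in direction to Meox1.

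Other genes of the activated state and the signals upstream were read from lists. Over all genes tested after TAC, 6.57% were called higher and 12.7% in either direction. A list count near these shares, such as that of the transcriptional regulators, is no more than the table as a whole gave. Of 22 other genes of activated fibroblasts and myofibroblasts, 19 were called higher and none lower, with a median log2 fold change of 1.80. Ccn2, a TGF-beta and YAP target, rose from 79.7 ± 28.9 to 499 ± 185 CPM (2.65, adjusted p = 0.00546 in edgeR). Col12a1 rose by 4.11 and Timp1 by 2.93 on the log2 scale. The contractile myofibroblast genes Acta2 (49.6 ± 7.14 in controls and 45.8 ± 17.7 CPM) and Tagln (17.0 ± 2.50 and 22.2 ± 2.99 CPM) were not called, nor was Ddah1. These lists were chosen with earlier results of these data known, and the 19 calls fell to 9 without control library 4 and to 11 without control library 2 or METTL5-cKO library 2. Among 16 inducers and signalling genes, of which 15 were tested, 5 were called higher, the ligands Tgfb2 (1.93), Tgfb3 (0.78) and Edn1 (0.48) and the receptors Tgfbr1 (0.70) and Tgfbr2 (0.45, all log2 fold changes). Tgfb1 was at 28.8 ± 2.81 and 33.0 ± 6.68 CPM and did not pass. Of 13 transcriptional regulators, Scx (1.01) and Tcf21 (0.53) were called higher, and Tead1 (0.39) and Srf (0.35) came next by adjusted p without passing. Of 11 receptors of the proteins, the integrin genes Itga9 (0.88), Itgb5 (0.76), Itga5 (0.50) and Itgav (0.48) were called higher and Itgb6 (-0.97) lower.

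**Figure D3:**
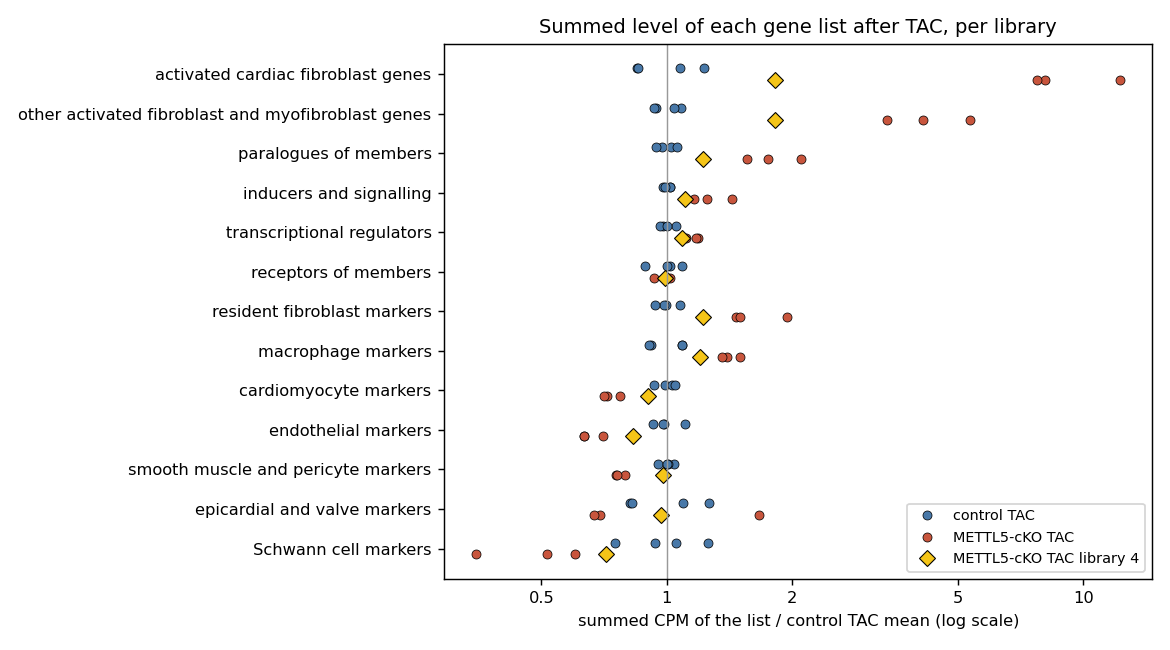
Summed CPM of each gene list in every library after TAC, divided by the control mean of that list, on a log axis (blue: control, red: METTL5-cKO, yellow diamond: METTL5-cKO library 4). The 10 genes sum to 919 to 1454 CPM in METTL5-cKO libraries 1 to 3 and 215 CPM in library 4, against 101 to 145 CPM in controls, and stand farther to the right than the resident fibroblast markers, while all METTL5-cKO libraries lie below 1 for cardiomyocyte and endothelial markers.

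Markers of the cell types in the heart moved less. Their counts of calls are to be read against the 12.7% of all tested genes called in either direction after TAC. Summed over the 10 genes, METTL5-cKO libraries 1 to 4 were at 1454, 959, 919 and 215 CPM and the controls at 145, 101, 127 and 101 CPM. Summed over 12 markers of resident fibroblasts, they were at 1354, 1020, 1042 and 850 CPM against 653 to 748 CPM, with 4 called higher (Pi16, Dcn, Lum and Tcf21) and Scara5 lower, and 8 called without METTL5-cKO library 4. For 8 cardiomyocyte markers the sums were 31184 to 39890 CPM against 41201 to 46366 CPM, with Tnni3 and Mb called lower, and 5 called without METTL5-cKO library 4. Of 7 endothelial markers 5 were lower (463 to 610 against 680 to 812 CPM), with Tek, Kdr, Cdh5 and Tie1 leading, and of 7 macrophage markers 3 were higher (198 to 246 against 149 to 179 CPM), namely Adgre1, Mrc1 and Lyz2. Of 7 smooth muscle and pericyte markers only Kcnj8 was called, lower, and the sums overlapped with 523 to 675 CPM against 656 to 718 CPM. Markers of the epicardium and valves (7 listed, 3 tested) gave no call and sums of 4.73 to 11.8 against 5.78 to 8.90 CPM. In that list the tendon and valve gene Tnmd was at 0.405 ± 0.340 CPM in METTL5-cKO hearts and 0 in controls (SD, n = 4). Chad was at 0.182 ± 0.136 against 0.0243 ± 0.0486 CPM. Krt19 (0.133 ± 0.169 against 0.359 ± 0.0789 CPM) and Upk1b (0.172 ± 0.170 against 0.273 ± 0.161 CPM) went the other way. All of these were too low to be tested. The tested genes were Upk3b (0.729 against 1.01 CPM), Wt1 (4.47 against 4.49 CPM) and Msln (0.957 against 0.903 CPM). Of 4 Schwann cell markers Sox10 was called lower. METTL5-cKO library 4 was the nearest of its group to the controls in the sums for resident fibroblasts, macrophages, cardiomyocytes, endothelium and smooth muscle as well. The part of these markers in the change of the 10 genes was not tested.

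Across the operation, hearts after TAC were set against the unoperated hearts of 3 months in 1 joint fit. These comparisons share their libraries with those between genotypes, and the operation cannot be told apart from the separate tables they were deposited in. In METTL5-cKO hearts, 7 of 9 tested genes were higher after TAC, where 10.2% of 17070 genes were. Mfap4 (log2 fold change 3.81, SE 0.349, adjusted p = 1.59e-05 in edgeR), Postn (4.58, SE 0.493), Cilp (4.85, SE 0.652), Thbs4 (4.48, SE 0.537), Comp (4.18, SE 0.709), Meox1 (2.35, SE 0.283) and Fn1 (1.33, SE 0.191) were called. Tnc had 1.2 (adjusted p = 0.0551 in edgeR) and Fap 0.09. In control hearts none of the 9 was called by edgeR, where 0.516% of all genes were, although 4 had an unadjusted p under 0.05, as did 17.6% of all genes, and DESeq2 called 1, Mfap4. Those 4 were Mfap4 (1.38, SE 0.335, adjusted p = 0.0690 in edgeR), Postn (1.38, SE 0.446), Cilp (1.43, SE 0.638) and Fap (0.62, SE 0.246). For Mfap4, Postn and Cilp the operated control libraries all lay above the unoperated ones, as for 6.02% of all genes. Leaving out METTL5-cKO library 4 gave 2 calls in controls, Mfap4 and Postn. The joint fit takes the spread of each gene from all its groups together, including METTL5-cKO hearts after TAC, which the control comparison leaves out. Postn was at 39.0 ± 11.4 CPM in operated and 14.9 ± 2.165 CPM in unoperated controls, but at 490 ± 294.5 CPM in METTL5-cKO hearts after TAC (SD, n = 4). Missing calls therefore do not show that these genes stayed unchanged in control hearts.

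Whether the genotype difference itself was wider after TAC was tested by the interaction. By edgeR, 0 of the 9 genes passed over all genes, where 1 of 17070 (0.00586%) did, while 7 had an unadjusted p under 0.05, where 11.8% of all genes had, and DESeq2 called 7. Their interaction terms were 3.83 for Thbs4 (SE 0.772, adjusted p = 0.123 in edgeR), 3.67 for Comp (SE 1.16), 3.42 for Cilp (SE 0.888), 3.20 for Postn (SE 0.629), 2.43 for Mfap4 (SE 0.467), 2.12 for Meox1 (SE 0.390) and 0.99 for Fn1 (SE 0.268). Without METTL5-cKO library 4 edgeR called these 7, with an adjusted p of 9.76e-05 for Postn. That library was picked by its low values in these same genes, so these calls are no separate support. The number of calls rests on how that library is treated and on the test, since DESeq2 called 7 with all libraries. Tnc (0.67) and Fap (-0.53) were not called in either.

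The unoperated hearts of 3 months came from other animals. Between METTL5-cKO and control, none of the 9 tested genes was called, by edgeR or DESeq2, where edgeR called 0.0732% of 16391 genes, and 2 had an unadjusted p under 0.05, where 7.05% of all genes had. Meox1 was at 7.28, 6.28, 5.30 and 8.24 CPM in METTL5-cKO hearts and at 9.05, 12.9, 9.06 and 12.3 CPM in controls. It was lower in every METTL5-cKO library than in any control (log2 fold change -0.68, SE 0.174, unadjusted p = 0.00315 and adjusted p = 0.327 in edgeR), the reverse of its direction after TAC, and 2.04% of all genes were lower without overlap. Postn was at 25.8, 24.6, 15.5 and 16.4 CPM against 17.9, 15.2, 13.1 and 13.6 CPM, which overlapped (0.46, SE 0.186, adjusted p = 0.650 in edgeR). Fn1 was at 29.9 ± 1.55 against 26.3 ± 3.82 CPM, Mfap4 at 7.47 ± 0.904 against 6.76 ± 0.730, Cilp at 3.22 ± 2.06 against 2.85 ± 0.532 and Thbs4 at 2.61 ± 0.229 against 2.09 ± 0.416 CPM (SD, n = 4). Tnc (1.68 ± 1.04 against 0.822 ± 0.357 CPM), Comp (1.70 ± 0.902 against 0.879 ± 0.456 CPM) and Fap (1.99 ± 0.375 against 1.59 ± 0.716 CPM) were at low levels and overlapped. Cthrc1 had 6 counts in METTL5-cKO library 2 and 0 in the other 7 libraries. The resident fibroblast markers summed to 668 to 769 CPM in METTL5-cKO hearts and 499 to 613 CPM in controls, with none called by edgeR and 3 by DESeq2. Cardiomyocyte markers summed to 39043 to 44181 against 44412 to 47338 CPM. Sums of the other cell types overlapped, among them endothelial (434 to 672 against 546 to 860 CPM) and macrophage markers (131 to 196 against 104 to 138 CPM). None of these was called by edgeR, and the part of all these markers in the values above was not tested. Per kb, Meox1 (4.86 ± 0.930), Postn (4.66 ± 0.678), Mfap4 (3.92 ± 0.424) and Fn1 (3.17 ± 0.459 CPM per kb) led in control hearts, each overlapping its neighbour, and the other genes were below 1 CPM per kb.

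At 1 month, where the knockout is of the whole body, none of the 9 tested genes was called by edgeR or DESeq2, and 0.00612% of 16329 genes were by edgeR. An unadjusted p under 0.05 was found for 2, Comp and Fn1, and for 4.57% of all genes. Comp had the largest difference. It had 0, 0, 11 and 0 counts in METTL5-KO hearts and 28, 34, 42 and 20 counts in controls, so that the groups did not overlap, as in 1.49% of all genes in this direction. The log2 fold change was -3.55 (SE 0.870, unadjusted p = 0.0025 and adjusted p = 0.971 in edgeR). It rests on few counts and ranged from -8.02, without the library of 11 counts, to -3.15 over fits that each left out 1 library. Its direction was opposite to that in METTL5-cKO hearts after TAC. Fn1 was at 48.3, 54.3, 50.1 and 44.1 CPM in METTL5-KO hearts and at 25.6, 36.6, 38.8 and 44.5 CPM in controls, overlapping by 1 library on each side (0.44, SE 0.160, unadjusted p = 0.0223 and adjusted p = 0.973 in edgeR). Postn was at 32.0, 41.2, 25.6 and 31.7 CPM against 5.29, 28.8, 27.7 and 21.2 CPM. Control library 1 was the lowest control for Postn, Meox1, Mfap4, Tnc, Cilp, Thbs4 and Fn1, with 0 counts of Tnc against 25 to 108 in the other controls, and its macrophage marker sum of 201 CPM lay above the 79.1 to 126 CPM of the others. Without it none was called, and the log2 fold changes were -3.68 for Comp, 0.30 for Fn1 and 0.34 for Postn. The genes Meox1 (16.4 ± 6.66 against 19.6 ± 11.8 CPM), Mfap4 (21.8 ± 10.6 against 24.0 ± 10.6), Cilp (3.18 ± 0.548 against 3.75 ± 1.74), Thbs4 (1.58 ± 0.321 against 1.71 ± 0.440), Fap (2.45 ± 0.384 against 2.71 ± 0.961) and Tnc (2.65 ± 1.33 against 2.14 ± 2.18 CPM) overlapped (SD, n = 4). Cthrc1 was at 4, 2, 0 and 2 counts in METTL5-KO hearts and at 0, 6, 3 and 5 counts in controls.

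**Figure D4:**
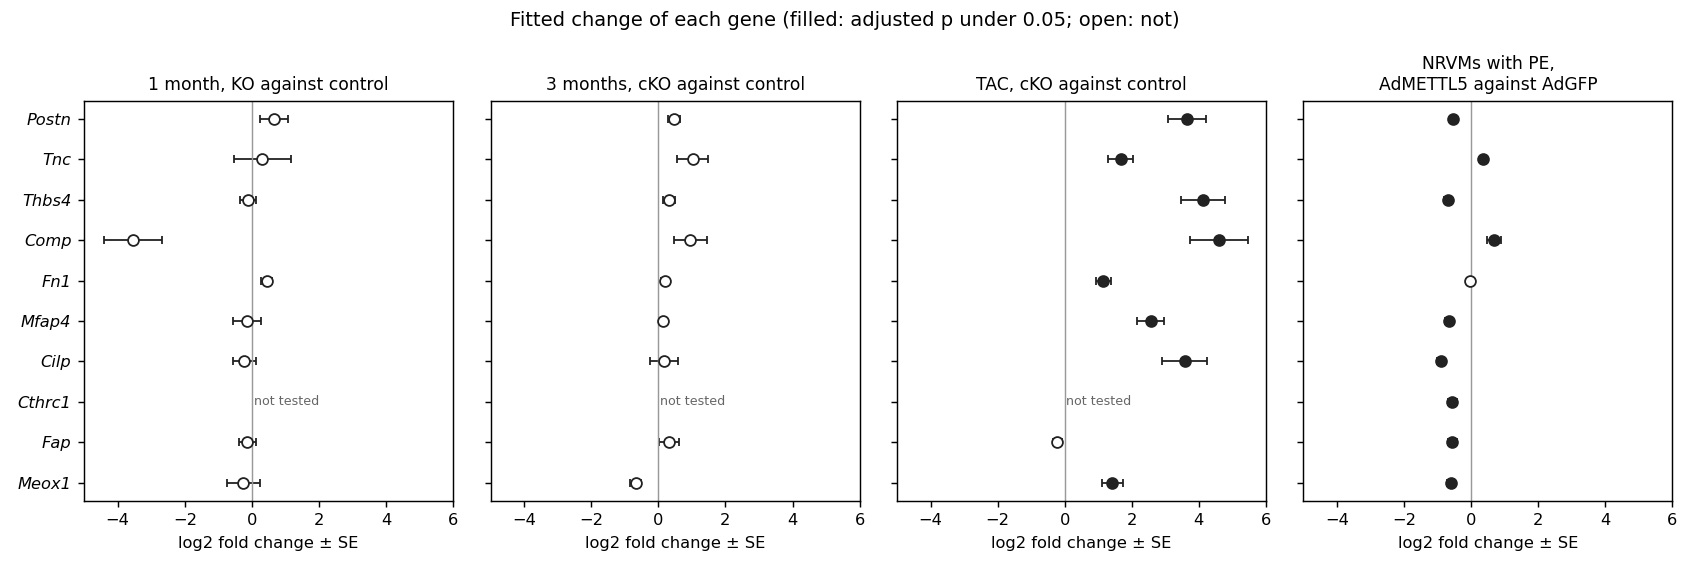
Log2 fold change of each gene in the 4 comparisons (points with 1 SE from edgeR's fit, filled where the adjusted p is under 0.05). After TAC 8 genes are filled and lie to the right of 0, in NRVMs 7 are filled to the left and 2 to the right, all within 1 of 0, and at 1 and 3 months none is filled.

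In NRVMs, where METTL5 was raised instead of lost, 9 of the 10 genes were called, 7 lower and 2 higher with AdMETTL5. This count has to be read against the whole table, where 52.8% of 15041 genes were called (25.7% lower and 27.1% higher), and none of the 10 passed with a change of more than 2-fold, where 4.05% of all genes did upwards and 1.8% downwards. After the pre-plating step, Fn1, Postn and Tnc were the highest of the 10 in mean CPM, and Comp the lowest at 1.11 CPM with AdGFP. Fn1 was at 3851, 4300, 4605 and 4365 CPM with AdGFP and at 3978, 3799, 4214 and 4557 CPM with AdMETTL5. The groups overlapped and Fn1 was not called (log2 fold change -0.05, SE 0.0716, adjusted p = 0.594 in edgeR), with a direction that turned to 0.09 when scaled by library size alone, a scaling that moved the median of all genes by 0.135 and the share of calls that were higher from 51.4% to 71.5%. Postn fell from 827, 845, 907 and 834 CPM to 571, 577, 569 and 620 CPM. The groups lay well apart (-0.55, SE 0.0494, adjusted p = 2.76e-06 in edgeR). Cilp fell most, from 104, 108, 90.3 and 81.1 CPM to 57.7, 53.0, 53.7 and 40.8 CPM (-0.90, SE 0.109, adjusted p = 2.67e-05 in edgeR).

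Thbs4 fell from 22.6, 18.6, 18.3 and 18.8 CPM to 12.4, 10.9, 11.0 and 14 CPM, a log2 fold change of -0.70 (SE 0.0984, adjusted p = 9.07e-05 in edgeR). Mfap4 fell from 81.3, 83.0, 66.1 and 62.6 CPM to 52.4, 47.0, 46.7 and 37.8 CPM (-0.67, SE 0.109, adjusted p = 0.000253 in edgeR). Meox1, Fap and Cthrc1 fell by 0.61, 0.56 and 0.56 on the log2 scale, from 18.6 ± 2.49 to 12.2 ± 1.81 CPM, from 5.63 ± 0.634 to 3.82 ± 0.525 CPM and from 29.9 ± 5.83 to 20.3 ± 3.01 CPM (SD, n = 4). The libraries of these genes did not overlap, as was so for 48.4% of all genes. Tnc and Comp went the other way. Tnc rose from 174, 177, 179 and 165 CPM to 210, 199, 238 and 248 CPM (0.36, SE 0.0670, adjusted p = 0.000659 in edgeR). Comp had 14, 20, 21 and 20 counts with AdGFP and 30, 29, 26 and 23 with AdMETTL5, and rose by 0.68 on the log2 scale (SE 0.205, adjusted p = 0.0139 in edgeR). Thus the thrombospondins Thbs4 and Comp moved in opposite directions in NRVMs, and so did Postn and Tnc.

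**Figure D5:**
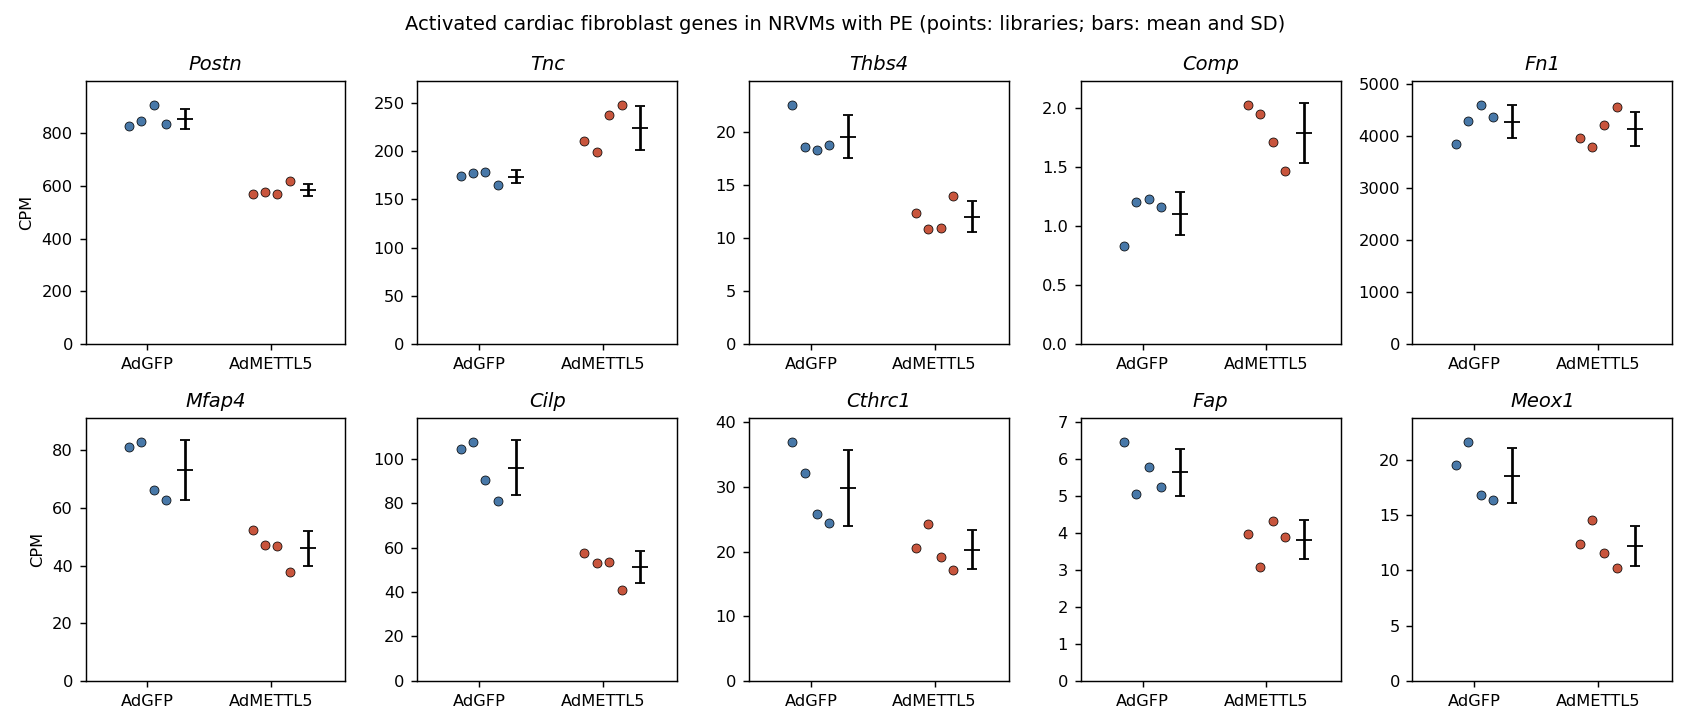
CPM of each gene in NRVMs treated with PE (points: libraries, bars: mean and SD, n = 4, axes from 0). Tnc and Comp are higher with AdMETTL5, Fn1 overlaps, and the other 7 genes are lower without overlap of the libraries.

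The other lists held calls in both directions in NRVMs, where 52.8% of all tested genes were called (25.7% lower and 27.1% higher). A list count near these shares is no more than the table as a whole gave. Of 22 other genes of activated fibroblasts and myofibroblasts, 9 were called lower and 6 higher, led by Ltbp2 (-0.69), Ddah1 (-0.83) and Fmod (-0.85), with a list median of -0.03 against -0.56 for the 10 genes and -0.0022 for all genes (log2 fold changes). Of the paralogues, 11 were tested, 6 were lower, among them Mfap2 (-1.21), Thbs1 (-0.50), Thbs2 (-0.55), Dpp4 (-1.44) and Meox2 (-0.72), and Cilp2 (0.49) and Tgfbi (0.27) were higher. Of 16 inducers and signalling genes 6 were lower, led by Tgfb3 (-0.43), Pdgfrb (-0.29), Il11ra1 (-0.20) and Tgfbr1 (-0.25), and 2 were higher. Of 12 regulators tested, 6 were higher and 2 lower, with Srf (-0.46), Tcf21 (-0.40), Runx1 (0.63) and Wwtr1 (0.23) leading. Of 10 receptors tested, 5 were lower and 3 higher, led by Itga9 (-1.03), Itga5 (-0.42), Cd47 (0.39) and Itga8 (-0.45). Among the markers of cell types, all 7 cardiomyocyte markers tested were lower, Myh6, Tnni3, Pln and Mb leading. Their sums were 11891 to 13345 with AdMETTL5 against 27295 to 34984 CPM with AdGFP. Of 12 resident fibroblast markers 9 were lower and 1, Smoc2, higher (544 to 592 against 616 to 679 CPM), Htra3, Dpt, Ddr2 and Tcf21 leading. Of the other markers, 3 of 6 for macrophages were lower, 5 of 5 for epicardium and valves lower, 1 of 5 for endothelium higher, 2 of 7 for smooth muscle and pericytes higher and 1 lower, and 1 of 2 for Schwann cells lower. The part of these markers in the change of the 10 genes was not tested.

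The genes with the pattern most like the 10 were sought over the 24 heart libraries, after removing each group's mean. Pearson's r with the mean of the tested genes was highest for Col8a2 (0.935), Bgn (0.928), Msn (0.928), Ttc9 (0.927) and F2r (0.925). The first is a short-chain collagen, the second the matrix proteoglycan biglycan, the third the membrane linker moesin and the last a thrombin receptor. Outside the METTL5-cKO TAC group (20 libraries) r for these 5 was 0.871, 0.846, 0.897, 0.914 and 0.836. These 20 libraries were among those used to pick the 5 genes, so this is no separate check. Control library 1 at 1 month also lay far from the rest of the 20. Its mean deviation of the 9 tested genes was -1.208 (log2), the next farthest of the 20 being 0.539 in control library 2 at 1 month. Over all 24 libraries the farthest was METTL5-cKO TAC library 4 at -1.4, and library 1 of that group was at 0.932. How far r rests on these libraries was not tested. Among the 9 tested genes themselves, each a part of that mean, r ranged from 0.965 for Postn to 0.178 for Fap. All points of a gene pair come from the same libraries and share their depth, so r is a description of these libraries.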

How the data were processed

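RNA-seq was run on 24 mouse heart libraries and 8 rat NRVM libraries, 4 per group. Per the labels, the authors aligned reads with HISAT2 2.0.4 to GRCm38 or Rnor_6.0, quantified genes with StringTie 2.1.4 and used DESeq2 1.4.5. The deposited values are whole-number estimated counts per gene, not normalized, and a StringTie estimate can share reads between overlapping genes. A fit for plain counts had been planned, and the estimated counts, already whole, entered it unchanged. In the 1-month table columns matched single samples. In the other tables they matched a group only, and libraries are numbered by column number. Strandedness is not given in the sources used here.

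Each table was fitted by itself with edgeR 4.0.16 in R 4.3.3 (TMM scaling, filterByExpr with a minimum count of 10 in 4 libraries and a total of 15, quasi-likelihood test, Benjamini-Hochberg over all tested genes). The SE is the log2 fold change divided by the square root of F. The 3-month and TAC tables were also fitted jointly, without a batch term, because table and operation coincide. Exact two-sided permutation tests used mean log2 CPM with a prior count of 2. Alternatives were DESeq2 1.42.0, other scalings and filters, a minimum of 2-fold, each library left out, and the replicate number as a block. Closest replicate libraries still differed by 2.159 in chi-square per degree of freedom, so none was counted as a duplicate. Fits were tested on simulated data. All 10 genes, their paralogues, the 4 genes of each other list with the smallest adjusted p and the 5 most similar genes are named, with 1 gene of a list not reported here, and further genes were named after their values were seen. Genes, lists and rules were chosen with earlier results of these data known. Gene coordinates and transcript lengths are from GENCODE M21 on GRCm38, promoter windows from RefSeq on GRCm38.p6.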

Additional observations from a re-analysis of the deposited data

Results flagged for a closer look

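Of 78 groups of 4 libraries, 5 held a library far from the other 3, where chance alone marks about 1 in 20. Comp was at 0.486 CPM (11 counts) in METTL5-KO library 3 at 1 month and at 0 in the other 3. Comp was at 0.83 CPM (14 counts) in AdGFP library 1, with the next library at 1.16 CPM. Cthrc1 was at 0.281 CPM (6 counts) in METTL5-cKO library 2 at 3 months and at 0 in the others. Postn was at 620.1 CPM in AdMETTL5 library 4, the next being at 577 CPM. Thbs4 was at 22.6 CPM in AdGFP library 1, the next being at 18.8 CPM.

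Meox1 had log2 fold changes of opposite direction between METTL5-cKO and control hearts, and the groups did not overlap in either. At 3 months it was -0.68 and not called (adjusted p = 0.327 in edgeR). After TAC it was 1.42 and called, a call kept in 5 of 8 fits that left out 1 library. The difference of these changes was 2.12 (SE 0.390) with an adjusted p of 0.120 in edgeR over all genes.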

How the results depend on the processing

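After TAC, the count of called genes ranged from 5 to 9 when single libraries were left out. This count includes Cthrc1 in the 5 fits where that gene passed the filter through the METTL5-cKO libraries alone. Of the 8 genes called with all libraries, 4 to 8 were called, and Postn, Comp, Thbs4 and Mfap4 were called in 8 of 8 of these fits. The interaction gave 0 to 7 calls and control hearts after TAC against 3 months 0 to 2 when single libraries were left out, the higher counts without METTL5-cKO TAC library 4, and DESeq2 gave 7 and 1. In NRVMs a minimum of 2-fold left 0 calls, and Fn1 turned to 0.0857 (log2) with library size alone. The cause of these changes was not tested. Leaving out single libraries turned the sign of uncalled genes. At 1 month log2 fold changes ranged from -0.50 to 0.0606 for Cilp, -0.24 to 0.13 for Fap, -0.58 to 0.14 for Meox1, -0.47 to 0.0735 for Mfap4, -0.22 to 0.0592 for Thbs4 and -0.13 to 1.28 for Tnc, and at 3 months from -0.13 to 0.45 for Cilp. Of the other settings for single genes, 364 kept direction and side of the threshold, 8 gained and 9 lost a call and 1 turned. With the replicate block at 1 month 0 genes were called, and samples of one number did not deviate together (r = 0.239, 0.120, -0.107 and 0.0782). No paired analysis was possible because columns carry no replicate numbers matched to samples in the other tables. Depth limits Cthrc1, Tnc and Comp, which had few or 0 counts in many heart libraries, and 4 libraries per group limit every test.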
